A study of Mus musculus with 18 samples.

Results

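The genes described here are 46 that encode the digestive machinery of the lysosome. They were chosen by symbol and found among the 53465 genes of the deposited table, and all 46 passed the filter on low counts in every comparison. By role, 14 encode proteases and peptidases, 9 other hydrolases, 4 activators and lipid transfer proteins, 4 membrane proteins, 2 transcription factors and 13 subunits or partners of the proton pump. Lysosomes are acidic organelles in which proteins, lipids and glycans are broken down. The vacuolar ATPase acidifies them with a peripheral V1 sector that hydrolyses ATP and a V0 sector in the membrane that passes protons, while TFEB and TFE3 are transcription factors known to drive lysosomal genes. In injured nervous tissue, microglia and infiltrating macrophages are known to take up and digest myelin and dead cells by this route.

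Microglia and macrophages were sorted from the contused spinal cord of female C57BL/6J mice of 8 to 10 weeks of age, all with a contusion at thoracic level 11. At 48 h after the spinal cord injury (SCI), 3 mice received an intraspinal injection of PBS, 3 received 100 ng of rIL-13 and 3 received 100 ng of rIL-4, and cells were collected 24 h later. Both cell types came from the same cords, which gave 18 libraries from PBS mice 1, 2 and 3, rIL-13 mice 5, 6 and 7 and rIL-4 mice 8, 9 and 10. Uninjured cord was not analysed here, so that PBS stands for injury plus vehicle. Microglia were gated as CD45 low and macrophages as CD45 high among CD11b+ F4/80+ cells, so that the cell types are defined by a sort and not by lineage tracing. The comparisons addressed how each cytokine changed either cell type against PBS, and how the cytokines and the cell types differed.

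The total was between 35961305 and 45849829 counts per library. In PBS mice, 10 microglia markers summed to between 7565 and 12925 CPM (counts scaled to the same library total) in microglia and to between 2602 and 4035 in macrophages, and 10 markers of monocyte-derived macrophages summed to between 4545 and 6044 and to between 23621 and 25786. Microglia libraries also held transcripts of other cells. The 10 fibroblast and pericyte markers, all detected, summed to between 238 and 9783 CPM in microglia and to between 0.763 and 9.83 in macrophages, and the value of 9783 was that of rIL-13 mouse 6. Endothelial markers summed to between 1193 and 4308 CPM in microglia and to between 48.9 and 397 in macrophages. With both cytokines, the sum of microglia markers was lower than with PBS in macrophages (990 to 1987 with rIL-13 and 435 to 837 with rIL-4). In microglia the range was 3410 to 8318 after rIL-13 and 2985 to 4521 after rIL-4. The sum of the macrophage markers with the cytokines was carried by Chil3, a gene known to be induced by IL-4 and IL-13, with 55.5 to 295 CPM in PBS microglia and 11334 to 23409 in rIL-4 microglia. Without Chil3, the other 9 markers summed to 4489 to 5749 CPM with PBS, 4009 to 6731 with rIL-13 and 4958 to 7504 with rIL-4 in microglia, and to 20211 to 23158, 12158 to 22280 and 14506 to 21560 in macrophages. Fibroblast and pericyte markers in microglia summed to 2855 to 4387 CPM with PBS and to 238 to 1604 with rIL-4.

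In PBS mice the 46 genes held 4.66% ± 0.486 (SD, n = 3) of all counts in microglia and 7.86% ± 0.503 in macrophages. Levels between genes were compared per length, as TPM, counts divided by exonic length and scaled to the same total in every library. Ctsd, which encodes the aspartic protease cathepsin D, was the highest of the 46 in both cell types, with 18444 ± 3645 TPM in microglia and 22499 ± 3549 TPM in macrophages (mean ± SD, n = 3). Ctss, for the cysteine protease cathepsin S, followed with 6959.7 ± 729 and 14079 ± 988 TPM. Among the other hydrolases, Hexa, for a subunit of hexosaminidase, had 958 ± 227 and 1475 ± 117 TPM, and Gusb, for beta-glucuronidase, had 369 ± 51.3 and 387 ± 44.6 TPM.

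Among activators and lipid transfer proteins, Psap, whose product is cut into the saposins that help hydrolases reach sphingolipids, had 1296 ± 117 TPM in microglia and 6739.6 ± 584 TPM in macrophages. Npc2, a cholesterol-binding protein of the lysosomal lumen, had 263 ± 11.6 and 439.8 ± 41.6 TPM. Of the membrane glycoproteins, Cd68 had 1961 ± 99.9 and 4774 ± 479.7 TPM and Lamp1 1340.0 ± 18.7 and 2480.2 ± 170.3 TPM. Among the pump genes, Atp6v0c, for the proteolipid that forms the rotor ring of V0, was the most abundant, with 384 ± 10.3 and 897 ± 55.2 TPM. It was followed by Atp6ap1, an accessory subunit, with 289.9 ± 3.75 and 513 ± 35.7 TPM. The transcription factors were at the low end, Tfe3 with 24.5 ± 0.739 and 27.2 ± 3.87 TPM and Tfeb with 3.35 ± 0.318 and 8.72 ± 0.38 TPM. The lowest levels were those of Atp6v0d2 in microglia, with 0.976 ± 0.732 TPM, and of Ctse in macrophages, with 3.71 ± 1.4 TPM.

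In PBS mice, most lysosomal genes were lower in microglia than in macrophages. Of the 46, 38 were lower, where 16.3% of all genes tested were lower, and 2 were higher, where 24.5% of all genes tested were higher, by edgeR's quasi-likelihood test. All 13 pump genes, all 4 activators and lipid transfer genes, all 4 membrane protein genes and both transcription factors were lower, with 10 of 14 proteases and 5 of 9 other hydrolases. The median log2 fold change was -1.01 over the 46 and 0.04 over all 14715 genes tested. In these sorted pools, a difference in RNA per cell and a difference in the share of the cells that express a gene cannot be told apart, and the part played by the fibroblast and endothelial transcripts of the microglia libraries was not tested.

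**Figure D1:**
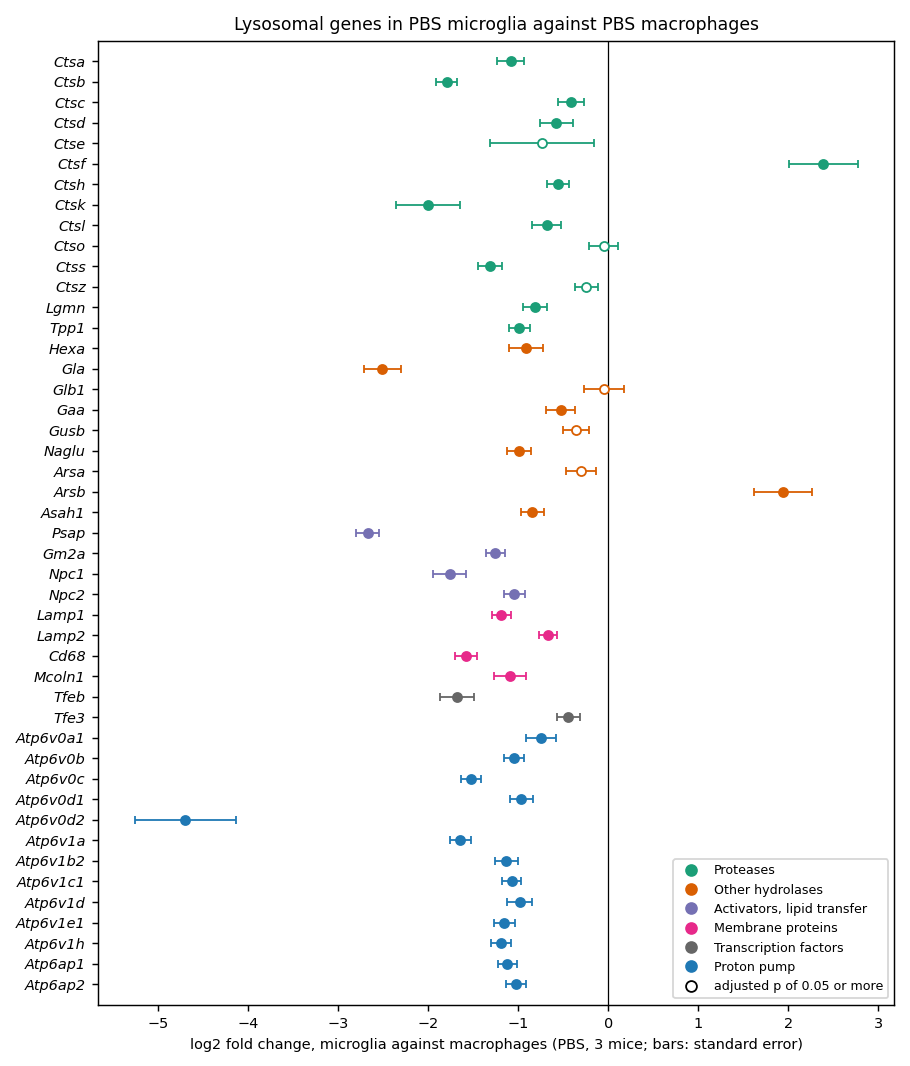
Log2 fold change of each of the 46 genes between PBS microglia and PBS macrophages (x axis), with genes on the y axis coloured by role, bars for the standard error and open circles for an adjusted p of 0.05 or more. Points lie left of 0 for 44 of 46 genes, and those of Ctsf and Arsb lie right of it.

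Psap (ENSMUSG00000004207.14, chromosome 10 from 60277627 to 60302597) had 54746, 43846 and 48042 normalized counts (counts divided by size factors) in the microglia of PBS mice 1, 2 and 3 and 314555, 284347 and 298563 in their macrophages. The groups did not overlap, with a log2 fold change of -2.67 ± 0.13 (SE) and an adjusted p of 3.61e-06 in edgeR's quasi-likelihood test. It was the lowest p among the 46. Gla (ENSMUSG00000031266.6, chromosome X from 134588149 to 134601125), which encodes alpha-galactosidase A, had 949, 1643 and 1455 normalized counts in microglia and 6635, 7716 and 7774 in macrophages, with a log2 fold change of -2.51 ± 0.21 (SE) and an adjusted p of 3.66e-05. Every microglia value was below every macrophage value. Ctsb (ENSMUSG00000021939.8, chromosome 14 from 63122462 to 63145923), for the cysteine protease cathepsin B, had 209126, 190987 and 218999 against 695764, 653429 and 712685 normalized counts, a log2 fold change of -1.79 ± 0.12 with an adjusted p of 1.29e-05.

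The other genes of lowest p had smaller differences of the same direction. The log2 fold change was -1.65 ± 0.12 (SE) for Atp6v1a, the catalytic subunit of V1, -1.58 ± 0.13 for Cd68 and -1.53 ± 0.11 for Atp6v0c. It was -1.26 ± 0.10 for Gm2a, the activator that presents GM2 ganglioside to hexosaminidase, -1.19 ± 0.11 for Lamp1, -1.19 ± 0.11 for Atp6v1h, a regulatory V1 subunit, and -1.12 ± 0.10 for Atp6ap1. The largest difference in size was that of Atp6v0d2, with a log2 fold change of -4.70 ± 0.56 and an adjusted p of 0.000258. Tfeb was lower by 1.68 on the log2 scale (adjusted p = 0.000191) and Tfe3 by 0.44 (adjusted p = 0.0218).

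Ctsf and Arsb stood against this direction. Ctsf (ENSMUSG00000083282.2, chromosome 19 from 4855130 to 4860918), for the cysteine protease cathepsin F, had 3888, 2099 and 3636 normalized counts in PBS microglia and 777, 286 and 697 in PBS macrophages, with a log2 fold change of 2.39 ± 0.39 (SE) and an adjusted p of 0.00132. Arsb (ENSMUSG00000042082.7, chromosome 13 from 93771630 to 93943016), for arylsulfatase B, which removes sulfate from dermatan and chondroitin sulfate, had 20554, 13333 and 22289 in microglia and 5917, 2591 and 5554 in macrophages, with a log2 fold change of 1.94 ± 0.32 (SE) and an adjusted p of 0.00152. For both genes, all 3 microglia values were above all macrophage values. The 6 genes without a call were Ctse, Ctso, Ctsz, Glb1, Gusb and Arsa, with log2 fold changes between -0.73 (Ctse) and -0.05 (Ctso). With the mouse as a block, which pairs both cell types of an animal, Gusb also passed, with an adjusted p of 0.0254. The number of members called was 37 without PBS mouse 1, 36 without PBS mouse 2 and 32 without PBS mouse 3. Calls over all genes also fell, from 3612 higher and 2402 lower of 14715 with all 3 mice. They were 3166 and 2047 of 15099, 3023 and 1860 of 15068, and 2762 and 1592 of 15048, in that order.

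The same direction was found in the mice that received a cytokine, whose libraries were not used in that test. Within a single mouse, between 39 and 43 of the 46 genes had a lower value in microglia than in macrophages, in each of the 9 mice. The median difference within a mouse was between -1.04 (PBS mouse 2) and -0.70 (rIL-4 mouse 10) on the log2 scale of normalized counts plus 1. It was -0.88, -0.81 and -0.80 in rIL-13 mice 5, 6 and 7 and -0.91, -0.73 and -0.70 in rIL-4 mice 8, 9 and 10. The difference within a mouse was not taken over all genes.

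The promoters of these genes were searched for the palindrome TCACGTGA, the core of the element that TFEB and TFE3 are known to bind in lysosomal genes. The RefSeq sequences of GRCm38.p6 used here, from 250 bases before to 50 after a start site, matched 37 of the 46 genes. Of these, 6 held TCACGTGA (16.2%), where 1.12% of all 27025 genes with a promoter did. The shorter E-box CACGTG, which TCACGTGA contains, was in 15 (40.5%), where it was in 8.09% of all genes. The stretches of these 6 genes are shown as the members with the full word. All 6 genes were lower in PBS microglia, as were 38 of all 46. TCACGTGA is in capitals, its reverse complement is the same word, and the stretches read 5′ to 3′ on the strand of the gene.
Atp6v0d1, chr8:105566035-105566094, minus strand: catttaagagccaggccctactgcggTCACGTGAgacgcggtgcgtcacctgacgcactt
Atp6v1a, chr16:44139358-44139417, minus strand: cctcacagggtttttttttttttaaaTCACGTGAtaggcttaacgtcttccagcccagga
Ctsa, chr2:164833734-164833793, plus strand: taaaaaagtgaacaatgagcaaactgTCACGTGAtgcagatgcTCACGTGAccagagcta
Ctsd, chr7:142387893-142387952, minus strand: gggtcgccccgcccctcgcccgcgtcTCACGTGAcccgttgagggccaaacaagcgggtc
Gla, chrX:134601200-134601255, minus strand: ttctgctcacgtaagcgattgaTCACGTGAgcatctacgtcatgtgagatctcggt
Mcoln1, chr8:3500447-3500506, plus strand: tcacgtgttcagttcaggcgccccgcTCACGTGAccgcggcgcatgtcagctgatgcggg

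The word began 4 bases before the start site in Atp6v0d1, 46 in Mcoln1, 99 in Ctsd, 132 in Atp6v1a and 228 in Gla. Ctsa held it at 2 places of the stretch, the first 13 bases before the start site, and the promoter of Gla held a further one past the end of the stretch. The palindrome TTCNNNNGAA, the spaced element that STAT6 is known to bind after IL-4 or IL-13 signalling, was searched after the values had been seen. It was in 2 of the 37 promoters (5.41%, Gm2a and Tfeb), where 8.01% of all genes held it. Atp6v0d2, Atp6v1b2, Atp6v1h, Atp6v1c1, Ctsb, Ctse, Ctsh, Asah1 and Npc1 had no matched promoter. A match describes these letters and is not evidence of binding.

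With either cytokine, a few lysosomal genes changed. Against PBS, 3 of 46 genes were higher in rIL-4 microglia (1.33% of all genes tested) and 2 were lower (0.887%) by edgeR's quasi-likelihood test. With rIL-13, 1 was higher in microglia (0.283% of all genes) and 0 were lower (0.0835%), while 6 of the 46 had an unadjusted p under 0.05, as did 7.76% of all genes. In macrophages, rIL-4 raised 3 (6.77% of all genes) and lowered 3 (7.2%), and rIL-13 raised 1 (2.53%) and lowered 1 (1.66%). In microglia, DESeq2 called 8 of the 46 with rIL-4 (7.81% of all genes) and 4 with rIL-13 (2.07%). In macrophages it called 11 with rIL-4 (19.6%) and 5 with rIL-13 (8.55%). The median log2 fold change over the 46 was 0.05 for rIL-4 and -0.01 for rIL-13 in microglia, and -0.11 and -0.13 in macrophages, beside -0.06, -0.00082, 0.02 and 0.0050 over all genes tested. Between 34 and 41 of the 46 lay within 0.5 of 0 in each of these 4 comparisons. The medians with rIL-13 depended on single mice. They were -0.18 in microglia and -0.24 in macrophages without rIL-13 mouse 5, and 0.17 and -0.0015 without rIL-13 mouse 6. The comparisons of both cytokines within a cell type share their PBS libraries. In microglia, the summed fibroblast and pericyte markers were lower with rIL-4, alongside the changes of Atp6v0d2, Atp6v1a, Atp6v1b2, Gaa and Arsb, and their part in these was not tested. The sum of the 9 macrophage markers other than Chil3 overlapped between PBS and rIL-4, but single markers did not. S100a4 had 44.0 to 75.9 CPM in PBS microglia and 225 to 314 in rIL-4 microglia. In macrophages, Fn1 had 971 to 1788 CPM with PBS and 3899 to 5639 with rIL-4, while Lyz2 and Vim were lower with rIL-4. The part of macrophage RNA in the microglia changes was not tested. In macrophages, the neutrophil markers summed to 982 to 1498 CPM with PBS and 254 to 832 with rIL-4, and the endothelial markers to 48.9 to 64.6 and 227 to 397 CPM. Of the endothelial markers, Pecam1 had 6.78 to 9.57 CPM with PBS and 141 to 295 with rIL-4, and Flt1 3.09 to 8.37 and 39.4 to 89.8. Kdr went the other way, with 24.9 to 33.2 and 3.05 to 8.37 CPM, as did Cldn5 and Tek at lower levels. The part of neutrophils and endothelial cells in the macrophage changes was not tested.

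**Figure D2:**
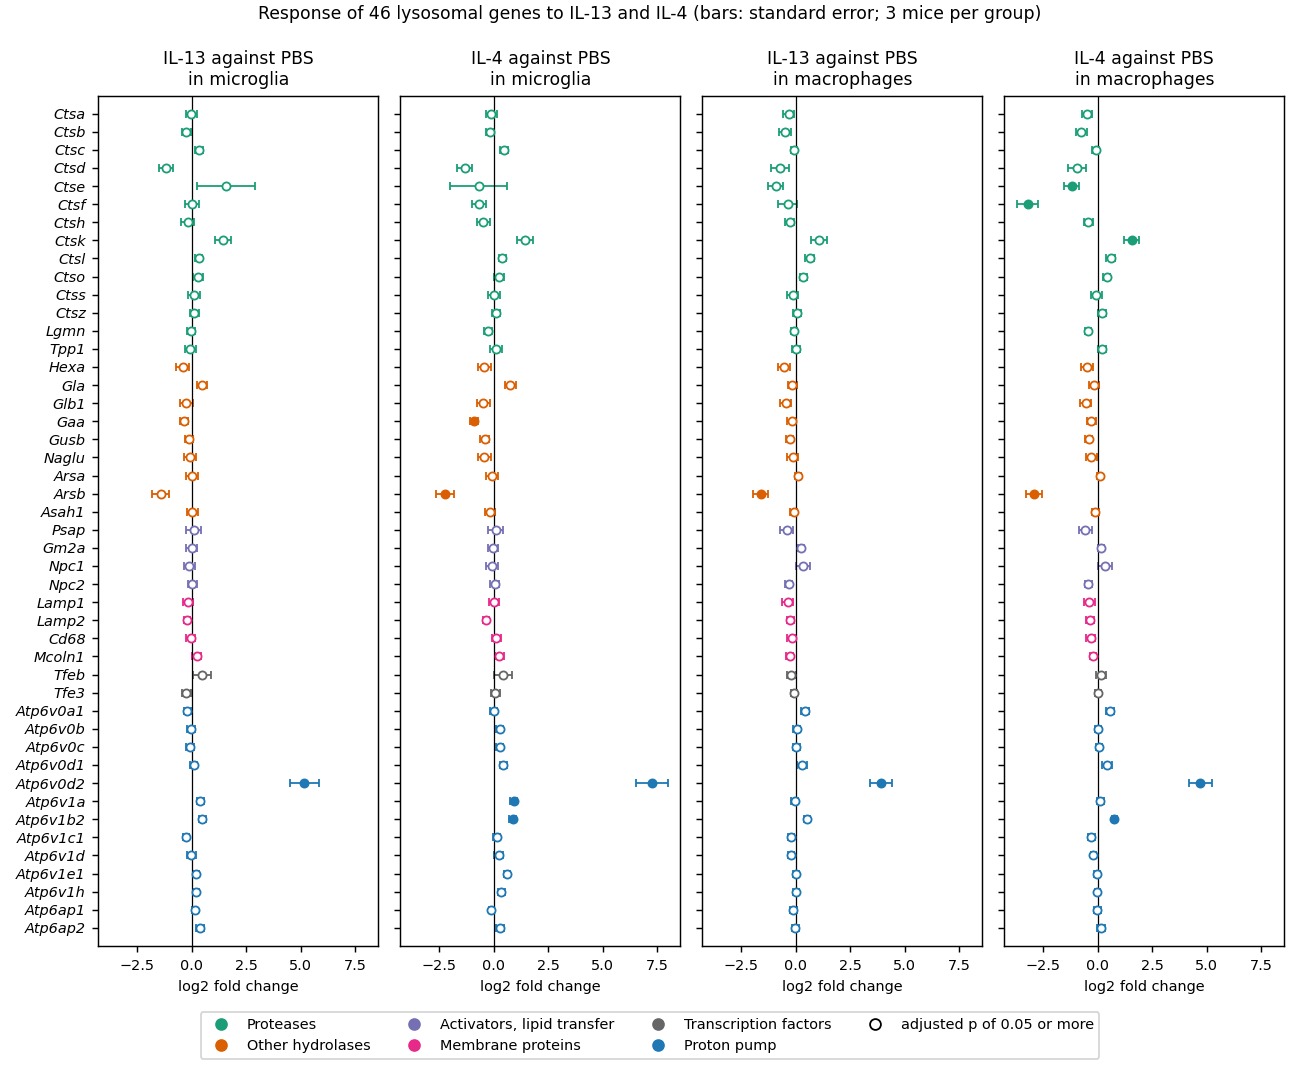
Log2 fold change against PBS (x axis) of the 46 genes (y axis, coloured by role) for rIL-13 and rIL-4 in microglia and in macrophages, with bars for the standard error and filled circles for an adjusted p under 0.05. Most points lie near 0, and Atp6v0d2 is the member farthest to the right in each of the 4 panels.

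The proton pump gene Atp6v0d2 was the only member that passed the test in all 4 comparisons with PBS. It encodes subunit d2 of V0, an alternative to the widely expressed d1, and is known from osteoclasts and other macrophage lineage cells. Atp6v0d2 (ENSMUSG00000028238.6, chromosome 4 from 19876841 to 19922605) had 26.3, 15.7 and 67.7 normalized counts in the microglia of PBS mice 1, 2 and 3. It had 1975, 465 and 1457 in the microglia of rIL-13 mice 5, 6 and 7 and 5296, 4777 and 6250.1 in those of rIL-4 mice 8, 9 and 10. The 3 groups did not overlap, and rIL-4 was highest.

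In microglia, Atp6v0d2 was raised by rIL-4 with a log2 fold change of 7.24 ± 0.73 (SE) and an adjusted p of 0.00163, a fitted fold of 152, and by rIL-13 with a log2 fold change of 5.16 ± 0.67 (SE) and an adjusted p of 0.013, a fitted fold of 35.8. The PBS values behind these folds were at most 67.7 normalized counts. The call for rIL-4 held without each mouse in turn, with adjusted p up to 0.0188. Its log2 fold change lay between 6.87 and 8.06 over all alternatives. The call for rIL-13 was lost on leaving out mouse 1 or 2 of PBS or mouse 7 of rIL-13 (adjusted p of 0.106, 0.0632 and 0.0549) and with only the 6 libraries compared (adjusted p = 0.0625), while the log2 fold change stayed between 4.72 and 5.98 over all alternatives.

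In macrophages, Atp6v0d2 had 1234, 562 and 959 normalized counts with PBS, 21742, 5218 and 12994 with rIL-13 and 30696, 16277 and 21582 with rIL-4, in the same order of mice. Both cytokine groups were above all PBS values, and they overlapped each other, with rIL-13 mouse 6 the lowest of the 6. The change was 4.69 ± 0.53 (SE) on the log2 scale with rIL-4 (adjusted p = 0.000446) and 3.90 ± 0.51 with rIL-13 (adjusted p = 0.00285), and both calls held in every alternative. Per length, Atp6v0d2 went from the lowest of the 46 in PBS microglia to 119.6 ± 12.5 TPM in rIL-4 microglia. In rIL-4 macrophages it reached 511 ± 190.4 TPM, where its paralog Atp6v0d1 had 380.1 ± 86.5 TPM. Atp6v0d1 itself did not pass the test, with log2 fold changes of 0.44 ± 0.15 in microglia and 0.43 ± 0.24 in macrophages with rIL-4.

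The A and B subunits of V1, which bind ATP, were also higher with rIL-4 in microglia. Atp6v1b2 (ENSMUSG00000006273.14, chromosome 8 from 69088646 to 69113711) had 10069.7, 11058 and 12118 normalized counts in PBS microglia, 17327, 13986 and 14583 in rIL-13 microglia and 16795, 21442 and 20682 in rIL-4 microglia. Its macrophage values were 23962, 21077 and 24875 with PBS, 34706, 29025 and 32676 with rIL-13 and 37075, 39576 and 37725 with rIL-4. In macrophages the 3 groups did not overlap, and in microglia both cytokine groups were above PBS while overlapping each other. With rIL-4, edgeR gave a log2 fold change of 0.86 ± 0.16 (SE) and an adjusted p of 0.0268 in microglia, and a log2 fold change of 0.76 ± 0.13 (SE) and an adjusted p of 0.00393 in macrophages. With rIL-13 the values were 0.47 ± 0.16 (adjusted p = 0.466) and 0.49 ± 0.13 (adjusted p = 0.067), and DESeq2 called the latter (adjusted p = 0.00466). Without rIL-13 mouse 6 it also passed in edgeR, with 0.57 (adjusted p = 0.0457).

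Atp6v1a (ENSMUSG00000052459.13, chromosome 16 from 44085402 to 44139705) had 8184, 9398 and 9936 normalized counts in PBS microglia, 12379, 11925 and 11292 with rIL-13 and 13916, 16751 and 19683 with rIL-4, without overlap between any of the groups. The rIL-4 change was 0.91 ± 0.16 (SE) with an adjusted p of 0.0218. In macrophages, where PBS had 27546 ± 1022 (mean ± SD, n = 3), rIL-13 25880.3 ± 4466 and rIL-4 28702 ± 3067, the groups overlapped and the rIL-4 value was 0.11 ± 0.16. The microglia calls of Atp6v1a and Atp6v1b2 were lost without PBS mouse 1, 2 or 3 and without rIL-4 mouse 9 or 10. The adjusted p was then between 0.0555 and 0.12 for Atp6v1a and between 0.0741 and 0.142 for Atp6v1b2, with log2 fold changes of at least 0.78 and 0.79.

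No other pump gene passed against PBS in edgeR as fitted on the 9 libraries of a cell type. Atp6v0a1, a membrane subunit of V0, had 0.56 ± 0.19 in rIL-4 macrophages (adjusted p = 0.072), and was called by DESeq2 (0.039) and by edgeR on only the 6 libraries compared (0.0378). Of the 13, 11 had a positive log2 fold change in rIL-4 microglia, with a median of 0.27 beside -0.06 over all genes. Of these 13 genes, 3 passed, where 1.33% of all genes tested were higher. Atp6v1e1, for a stalk subunit of V1, was next, with 5254, 5355 and 4820.1 normalized counts with PBS and 8668, 7408 and 6947 with rIL-4, a value of 0.61 ± 0.14 and an adjusted p of 0.065, and it was called by DESeq2 (adjusted p = 0.00084) and by edgeR in a model of all 18 libraries (0.0147). In rIL-4 macrophages, 8 of 13 were positive, with a median of 0.05 beside 0.02 over all genes. There 2 passed, where 6.77% of all genes tested were higher. With rIL-13, the medians were 0.12 in microglia and 0.01 in macrophages, beside -0.00082 and 0.0050 over all genes. The values of the most abundant subunit, Atp6v0c, were 17825 ± 322, 16594 ± 2922 and 20917 ± 2603 normalized counts in PBS, rIL-13 and rIL-4 microglia, and 49236 ± 4446, 49130.0 ± 4133 and 49275 ± 3902 in macrophages. Those of Atp6ap1 were 12039 ± 196, 13044 ± 203 and 10743 ± 689.6 in microglia and 25162 ± 1611, 22708 ± 3165 and 23923 ± 2789 in macrophages. Atp6v1h had 3699 ± 147, 4172 ± 367 and 4583 ± 697 in microglia and 8117 ± 439.6, 7968 ± 503 and 7676 ± 653 in macrophages.

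**Figure D3:**
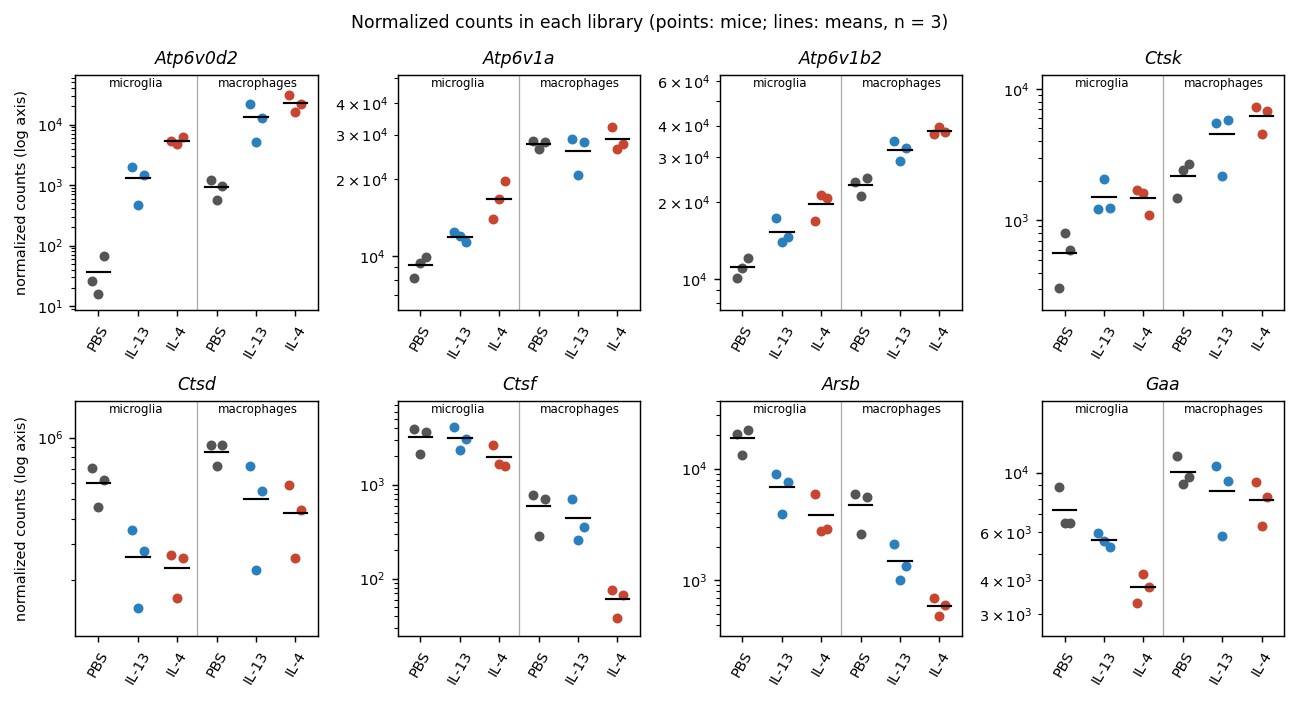
Normalized counts (y axis, log scale) of 8 lysosomal genes in each of the 18 libraries, by treatment (x axis) in microglia (left of each panel) and macrophages (right), with points for mice and lines for the mean of 3 mice. The microglia of the 3 treatments do not overlap for Atp6v0d2, Atp6v1a and Gaa, and rIL-4 macrophages lie below all other libraries for Ctsf and Arsb.

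Of the 14 proteases, 0 passed in rIL-4 microglia by edgeR, where 4 had an unadjusted p under 0.05 (16.4% of all genes) and DESeq2 called 2 (7.81%). In rIL-4 macrophages, 1 was higher and 2 were lower, where 6.77% and 7.2% of all genes tested were, and DESeq2 also called Ctsb, Ctsl (adjusted p = 0.0389) and Lgmn (0.0061). Ctsk (ENSMUSG00000028111.4, chromosome 3 from 95499256 to 95509362), for the collagen-degrading cysteine protease cathepsin K, had 1492, 2408 and 2681 normalized counts in PBS macrophages, 5524, 2192 and 5808 with rIL-13 and 7308, 4505 and 6748 with rIL-4. All rIL-4 values were above all PBS values, with a log2 fold change of 1.54 ± 0.36 (SE) and an adjusted p of 0.0189, and the rIL-13 values, of which mouse 6 was lowest, overlapped PBS (1.07 ± 0.36, adjusted p = 0.143). DESeq2 called the rIL-13 change of Ctsk (adjusted p = 0.0412) and that of Ctsl (0.0462), and edgeR that of Ctsk with all genes of any count (0.0341). Without rIL-13 mouse 6, Ctsk passed in edgeR with 1.40 (adjusted p = 0.0162). The rIL-4 call was lost without PBS mouse 1 or 2 or rIL-4 mouse 8 or 10, with adjusted p of 0.074, 0.0528, 0.0535 and 0.0625.

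In microglia, Ctsk had 305, 807 and 594 normalized counts with PBS, 1226, 2069 and 1244 with rIL-13 and 1710.0, 1616 and 1099.8 with rIL-4. Both cytokine groups were above all PBS values. The log2 fold changes were 1.41 ± 0.37 with rIL-13 (adjusted p = 0.276) and 1.41 ± 0.37 with rIL-4 (adjusted p = 0.0936), and DESeq2 called both (adjusted p of 0.0248 and 0.00926). In a model of all 18 libraries, edgeR also called the rIL-4 change (0.0456). The rIL-13 value of mouse 6, the library with the highest sum of fibroblast and pericyte markers, was the highest of all. The part of those cells in the Ctsk values of microglia was not tested, while in macrophages these markers summed to at most 9.83 CPM.

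Ctsd had 713695, 455961 and 621532 normalized counts in PBS microglia, 352013, 145580.0 and 278660.0 with rIL-13 and 267422, 164312 and 255972 with rIL-4. Every cytokine value was below every PBS value. The log2 fold changes of -1.19 ± 0.34 and -1.35 ± 0.34 did not pass in edgeR, with adjusted p of 0.333 and 0.0844, and DESeq2 called both (0.00741 and 0.000415). With only the 6 libraries compared, edgeR also called the rIL-4 change (adjusted p = 0.0426). In macrophages, Ctsd had 920985, 726868 and 915749 with PBS, 729253, 224697 and 548778 with rIL-13 and 587218, 257617 and 440227 with rIL-4, values of -0.74 ± 0.41 and -0.94 ± 0.41 with adjusted p of 0.394 and 0.16. Mouse 2, mouse 6 and mouse 9 had the lowest Ctsd of their treatment in both cell types.

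Ctsf was lowered by rIL-4 in macrophages. It had 777, 286 and 697 normalized counts with PBS, 708, 260.1 and 355 with rIL-13 and 75.7, 38.4 and 67.5 with rIL-4, so that all 3 rIL-4 values were below the other 6. The change was -3.22 ± 0.49 (SE) with an adjusted p of 0.00215, 9.3-fold lower, and it was called in every alternative. In microglia the groups overlapped, with 3888, 2099 and 3636 normalized counts for PBS, 4115, 2361 and 3044 for rIL-13 and 2619, 1678 and 1587 for rIL-4, and a rIL-4 value of -0.68 ± 0.31 (adjusted p = 0.328). The sum of 10 microglia markers moved in the same direction in macrophages, from between 2602 and 4035 CPM with PBS to between 435 and 837 with rIL-4. The part of microglial RNA in the Ctsf values of the macrophage gate was not tested.

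Ctse, for the aspartic protease cathepsin E, was low. In macrophages it had 229, 112 and 227 normalized counts with PBS, 131, 90.5 and 69.5 with rIL-13 and 74.7, 83.6 and 79.9 with rIL-4, with a log2 fold change of -1.20 ± 0.35 (SE) and an adjusted p of 0.0454 for rIL-4. The call was lost without PBS mouse 1 or 3 and without rIL-4 mouse 8, 9 or 10 (adjusted p between 0.0795 and 0.156), and in a model of all 18 libraries (adjusted p = 0.669). In microglia it had 154, 37.4 and 164 with PBS, 426, 273 and 339 with rIL-13 and 116, 0 and 100.5 with rIL-4, without a call. The 0 was that of rIL-4 mouse 9. Among abundant proteases, Ctsb in macrophages had 695764, 653429 and 712685 with PBS, 586751, 293641 and 535972 with rIL-13 and 449819, 310749 and 414037 with rIL-4. Both cytokine groups were below PBS, but the rIL-4 value of -0.76 ± 0.26 did not pass (adjusted p = 0.0851), while it did with DESeq2 (0.0159), with all genes of any count (0.0405) and with only the 6 libraries compared (0.0279). In microglia Ctsb had 206371 ± 14208, 172081 ± 35324 and 179689 ± 26161 (mean ± SD, n = 3). Ctss, the second most abundant, gave between -0.15 and 0.10 in the 4 comparisons.

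Of the other hydrolases, Arsb was lowered in 3 of the 4 comparisons. It had 20554, 13333 and 22289 normalized counts in PBS microglia, 8984, 3967 and 7538 with rIL-13 and 5899, 2772 and 2859 with rIL-4. In macrophages it had 5917, 2591 and 5554 with PBS, 2133, 1016 and 1349 with rIL-13 and 692, 476 and 606 with rIL-4. The 3 macrophage groups did not overlap, and in microglia both cytokine groups were below PBS. With rIL-4, edgeR gave a log2 fold change of -2.25 ± 0.40 (SE) and an adjusted p of 0.0239 in microglia and a log2 fold change of -2.93 ± 0.36 (SE) and an adjusted p of 0.000631 in macrophages. With rIL-13 it gave a log2 fold change of -1.61 ± 0.34 (SE) and an adjusted p of 0.028 in macrophages, and -1.44 ± 0.39 (adjusted p = 0.309) in microglia, which DESeq2 called (0.00523).

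The rIL-4 call of Arsb in macrophages held in every alternative. In microglia it was lost without PBS mouse 1 or 3 and without rIL-4 mouse 9 or 10 (adjusted p between 0.0748 and 0.102). The rIL-13 call of Arsb in macrophages was lost without PBS mouse 1 or 3, without rIL-13 mouse 6 or 7 (adjusted p between 0.0601 and 0.103) and in a model of all 18 libraries (0.0535). As for Ctsf, the sum of microglia markers was lower with rIL-4 than with PBS, in both cell types without overlap, and its part was not tested. Exons of Arsb overlap 1948 bases of Gm26527 on the opposite strand, which these libraries do not resolve, and Gm26527 had a mean of 30.4 normalized counts against 6029 for Arsb.

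Gaa (ENSMUSG00000025579.14, chromosome 11 from 119267887 to 119285454), for acid alpha-glucosidase, which breaks down glycogen, had 8876, 6519 and 6497 normalized counts in PBS microglia, 5970.0, 5594 and 5299.6 with rIL-13 and 3289, 4220.2 and 3777 with rIL-4. The 3 groups did not overlap, and the rIL-4 change was -0.92 ± 0.17 (SE) with an adjusted p of 0.0268. The call was lost without PBS mouse 1, 2 or 3 and without rIL-4 mouse 8 or 10, with adjusted p between 0.0606 and 0.117. In macrophages, Gaa had 10075 ± 1308 (mean ± SD, n = 3) with PBS, 8569 ± 2462 with rIL-13 and 7919 ± 1458 with rIL-4, which overlapped (-0.29 ± 0.22, adjusted p = 0.442). Of the 9 hydrolases, 8 had a negative value in rIL-4 microglia and 8 in rIL-4 macrophages, but none passed besides Arsb and Gaa. The medians were -0.44 and -0.30, beside -0.06 and 0.02 over all genes. Gla was the exception in microglia, with 949, 1643 and 1455 normalized counts with PBS, 1792, 1694 and 2065 with rIL-13 and 1834, 1989.9 and 2843 with rIL-4, and a value of 0.76 ± 0.25 (adjusted p = 0.174). Its macrophage values were 7375 ± 642, 6441 ± 1761 and 6323 ± 1192.

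No activator, membrane protein or transcription factor passed in any comparison with PBS by edgeR, and DESeq2 added only Npc2 in rIL-4 macrophages (adjusted p = 0.0401). Psap had 48878 ± 5498, 51298 ± 22628 and 50623 ± 13686 normalized counts in PBS, rIL-13 and rIL-4 microglia and 299155 ± 15113, 217161 ± 88185 and 194024 ± 45189 in macrophages. Its rIL-4 values were 0.09 ± 0.34 and -0.57 ± 0.30 (adjusted p = 0.962 and 0.251). Gm2a had 7565 ± 426, 7410.5 ± 2394 and 7148 ± 1081 in microglia and 17329.7 ± 810.3, 19719 ± 2563 and 18373 ± 2133 in macrophages.

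Lamp1 had 49208 ± 1312, 43382 ± 14221 and 47589 ± 8054 normalized counts in microglia and 107568 ± 8671, 81224 ± 28018 and 78909 ± 13042 in macrophages. Cd68 had 33857 ± 2493, 32160.0 ± 7756 and 35534 ± 5285 in microglia and 97341 ± 11135, 83005 ± 22211 and 74566 ± 5667 in macrophages. All 4 membrane protein genes had negative values in macrophages with both cytokines, between -0.40 (Lamp1 with rIL-4) and -0.20 (Cd68 with rIL-13). Tfeb had 247, 245 and 290.0 normalized counts in PBS microglia, 419, 205 and 442 with rIL-13 and 274, 354 and 380.5 with rIL-4, which overlapped, with 0.46 ± 0.41 and 0.40 ± 0.41. Tfe3 gave between -0.26 and 0.07 in the 4 comparisons.

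Between rIL-4 and rIL-13, 0 of 46 genes passed in microglia by edgeR (0.0385% of all genes) and 7 had an unadjusted p under 0.05 (11.4% of all genes). Of these 7, 6 were pump genes. The pump genes had a median of 0.35 in rIL-4 against rIL-13 microglia, beside -0.02 over all genes, and 11 of 13 were positive. Atp6v0d2 was higher with rIL-4 by 2.08 ± 0.57 (SE, adjusted p = 0.289) and Atp6v1a by 0.53 ± 0.16 (adjusted p = 0.314), both without overlap of the groups, and DESeq2 called these 2 (0.00451 and 0.0379), beside 3.58% of all genes. In macrophages, 0 of 46 passed by edgeR (0.25% of all genes), 3 had an unadjusted p under 0.05 (11.1%), and DESeq2 called 2 (3.09%). These were Ctsf, with -2.84 ± 0.48 and an adjusted p of 0.0514 by edgeR (1.84e-07 by DESeq2), and Arsb, with -1.32 ± 0.34 and 0.161 (0.00734 by DESeq2). Without rIL-13 mouse 6, edgeR called Ctsf (-3.12, adjusted p = 0.0403).

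The response to a cytokine was then compared between the cell types. For rIL-4, 0 of 46 genes differed in response by edgeR (0.992% of all genes), 8 had an unadjusted p under 0.05 (12.4%) and DESeq2 called 4 (4.17%). With the mouse as a block, which pairs the microglia and macrophages of an animal, edgeR called 2. Over all 16535 genes that fit called 122 higher and 66 lower. The rIL-4 response of Ctsf was less negative in microglia, by 2.52 ± 0.60 (SE) on the log2 scale (adjusted p = 0.0593), and by 2.46 ± 0.30 (adjusted p = 0.00452) with the block. That of Atp6v0d2 was larger in microglia by 2.54 ± 0.81 (adjusted p = 0.175), and by 2.68 ± 0.39 (adjusted p = 0.00939) with the block. Its level in rIL-4 microglia nevertheless remained below that of rIL-4 macrophages in all mice. The part of microglial RNA in the Ctsf values of the macrophage gate was not tested. Atp6v1a and Atp6v1e1 gave 0.77 ± 0.21 and 0.62 ± 0.19 (adjusted p = 0.109 and 0.15), and DESeq2 called both (0.00779 and 0.00515). For rIL-13, 0 of 46 differed by edgeR (0.0242% of all genes) or by DESeq2 (0.931%), and 1 had an unadjusted p under 0.05 (5.83%).

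rIL-13 mouse 6 had the lowest value of its 3 mice for 39 of 46 genes in microglia and for 39 in macrophages, 34 of them in both. Its median deviation from the group mean was -0.32 in microglia and -0.36 in macrophages on the log2 scale, where the median over all genes was 0.02 and 0. rIL-4 mouse 9 was lowest for 24 genes in microglia and 34 in macrophages, and PBS mouse 2 for 29 and 23, where PBS mouse 1 was lowest for 11 and 20. Deviations of 3 mice from their own mean are linked, so that these counts are a description. Across the 46 genes, which are not independent, the deviations of the microglia and macrophages of a mouse had a correlation of 0.39 to 0.75 in PBS mice, of 0.46, 0.37 and 0.15 in rIL-13 mice 5, 6 and 7, and of 0.04, -0.06 and -0.01 in rIL-4 mice 8, 9 and 10.

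**Figure D4:**
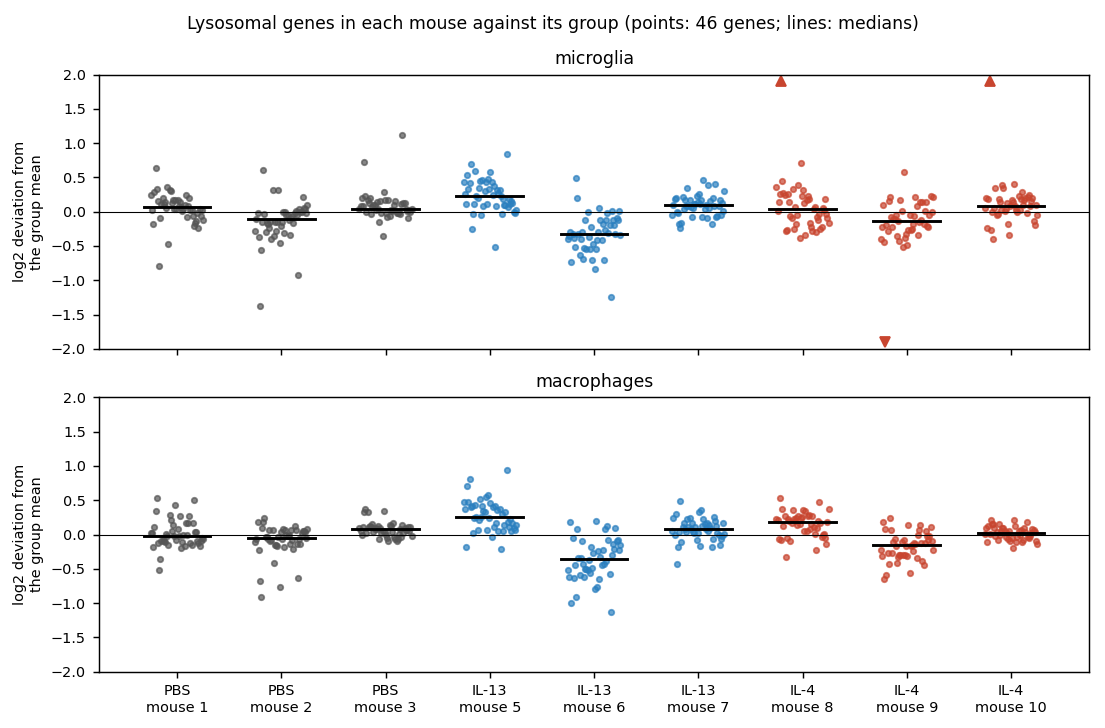
Deviation of each of the 46 genes from the mean of its group (y axis, log2 of normalized counts plus 1) in each mouse (x axis), for microglia and macrophages, with lines for medians. Triangles mark 3 points of Ctse beyond 2 on the axis, and the medians of rIL-13 mouse 6 are -0.32 and -0.36.

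Marker sums also differed between these mice. The microglia of mouse 6 held 9783 CPM of fibroblast and pericyte markers, where rIL-13 mice 5 and 7 held 2120 and 1604, and 3410 CPM of microglia markers, where they held 8318 and 6656. Its macrophages held 9.83 CPM of fibroblast and pericyte markers and 2755 CPM of neutrophil markers, where mice 5 and 7 held 498 and 504. Mouse 9 and mouse 2 also had the highest neutrophil sum of their treatment in macrophages, 832 CPM against 254 and 409 in rIL-4 mice 8 and 10, and 1498 against 982 and 989 in PBS mice 1 and 3. The microglia of PBS mouse 2 held the most fibroblast and pericyte markers of the PBS mice, 4387 CPM against 2855 and 3155, and the fewest microglia markers, 7565 CPM against 12925 and 11940. The microglia of mouse 9 lay between those of mice 8 and 10 for both lists, with 1114 CPM of fibroblast and pericyte markers against 1604 and 238, and 3148 CPM of microglia markers against 4521 and 2985. In microglia, mice 6 and 2 had the lowest neutrophil sums of their treatments, 104 and 197 CPM. The part of these cells in the lysosomal values was not tested. Without mouse 6, the median of the 46 with rIL-13 against PBS was 0.17 in microglia and -0.0015 in macrophages, in place of -0.01 and -0.13, and that of rIL-4 against rIL-13 in microglia was -0.18 in place of -0.0015. The calls without mouse 6 were 1 in rIL-13 microglia and 3 in rIL-13 macrophages (Atp6v0d2, Ctsk and Atp6v1b2). Over all genes, 45 were higher and 6 lower of 16538 in microglia, and 303 and 226 of 14058 in macrophages. Without mouse 5, which had the highest of the 3 values for most of the 46 genes, the median of rIL-4 against rIL-13 in microglia was 0.17.

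The share of all counts held by the 46 genes had a lower mean with the cytokines than with PBS. In microglia it was 4.66% ± 0.486 (SD, n = 3) with PBS, 3.74% ± 0.842 with rIL-13 and 3.26% ± 0.0488 with rIL-4, and in macrophages 7.86% ± 0.503, 5.76% ± 1.63 and 5.70% ± 1.04. The rIL-4 shares lay below all PBS shares in both cell types, and so did the rIL-13 shares in macrophages, while in microglia the rIL-13 shares overlapped PBS. No test was made of these sums, which are dominated by a few genes. Ctsd alone held 1.68% ± 0.329 in PBS microglia and 0.593% ± 0.097 in rIL-4 microglia, and 2.03% ± 0.289 and 1.03% ± 0.423 in macrophages. The share of the pump genes was higher with rIL-4 in every mouse than in any PBS mouse of the cell type, but in macrophages this rested on Atp6v0d2. The values were 0.254% ± 0.0118 in PBS microglia and 0.318% ± 0.0386 in rIL-4 microglia, and 0.484% ± 0.019 and 0.578% ± 0.062 in macrophages. Without Atp6v0d2, the other 12 pump genes held between 0.470% and 0.504% in PBS macrophages and between 0.498% and 0.573% in rIL-4 macrophages, which overlapped, while in microglia they held between 0.241% and 0.264% with PBS and between 0.265% and 0.342% with rIL-4. Without mouse 6, the rIL-13 share was 4.22% in microglia and 6.69% in macrophages.

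**Figure D5:**
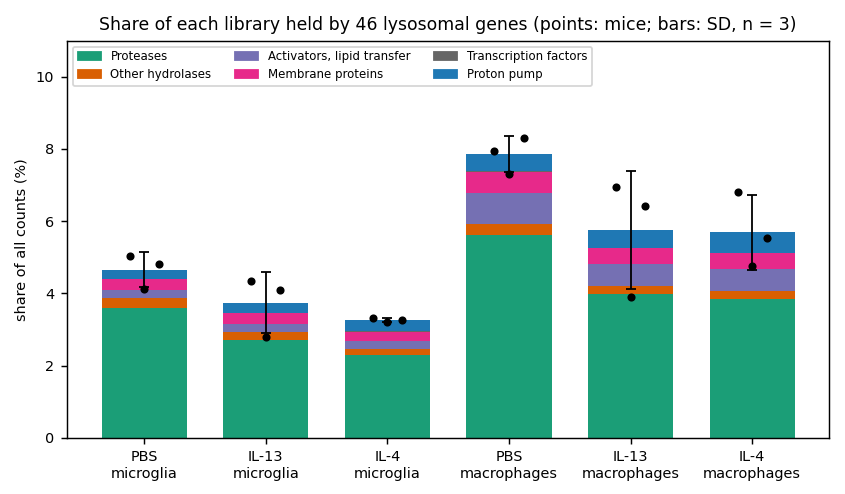
Share of all counts of a library held by the 46 genes (y axis, percent), stacked by role, for each group (x axis), with points for mice and bars for the SD of 3 mice around the mean. Shares run from 2.78% to 5.04% in microglia and from 3.90% to 8.32% in macrophages.

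Other genes of the lysosome, from a list of 99, were described beside the 46. With rIL-4, of 92 tested in macrophages, 6 were higher and 9 lower by edgeR, where 6.77% and 7.2% of all genes were. Of 90 tested in microglia, 1 was higher and 1 lower, where 1.33% and 0.887% of all genes were. These counts are near those shares. DESeq2 called 6 higher and 15 lower in macrophages, where it called 1262 and 1398 of all 13606 genes tested. In microglia it called 6 higher and 6 lower, beside 547 and 668 of 15566 genes. The median log2 fold change was -0.15 in macrophages and -0.06 in microglia, beside 0.02 and -0.06 over all genes. Slc11a1, a metal ion transporter of phagosomes, had 25320.2, 27733 and 27384 normalized counts in PBS macrophages and 13365, 10125 and 10825 with rIL-4, with a log2 fold change of -1.18 ± 0.14 (SE) and an adjusted p of 0.000524. Gnptab, which encodes the enzyme that starts the mannose 6-phosphate tag on lysosomal hydrolases, changed by -1.43 ± 0.18 (adjusted p = 0.000718), and Laptm4b, a lysosomal membrane protein, by -1.53 ± 0.22 (adjusted p = 0.00164). Higher were Mcoln2, a cation channel related to Mcoln1, by 1.63 ± 0.22 (adjusted p = 0.00124), and Naaa, an acid amidase, by 1.12 ± 0.17 (adjusted p = 0.00196).

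With rIL-13, 4 of 92 were higher and 2 lower in macrophages, where 2.53% and 1.66% of all genes were, and 0 of 90 passed in microglia by edgeR, where 14 had an unadjusted p under 0.05 (7.76% of all genes) and DESeq2 called 1 (2.07%). The 5 of lowest p in macrophages were Mcoln2 (1.48 ± 0.22, adjusted p = 0.00566), Naaa (1.10 ± 0.17, 0.00601), Gnptab (-1.09 ± 0.18, 0.00793), Tfec (2.32 ± 0.46, 0.0224) and Slc11a1 (-0.66 ± 0.14, 0.0265). Tfec belongs to the same transcription factor family as Tfeb and Tfe3. The genes called in rIL-4 microglia were Acp5 and Scarb2. Acp5, for tartrate-resistant acid phosphatase, had 357, 656 and 480.3 normalized counts with PBS and 3439.8, 2095 and 6588 with rIL-4, without overlap (3.06 ± 0.62, adjusted p = 0.0384). Scarb2, the receptor that carries glucocerebrosidase to lysosomes, had 5778, 6105 and 6314 and 4123, 3296 and 4010.0, also without overlap (-0.64 ± 0.13, adjusted p = 0.0462).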

How the data were processed

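SMART-seq2 libraries, which keep no strand and no molecular identifiers, were sequenced by the authors, who aligned the reads with STAR 2.5.3a and quantified them with RSEM 1.3.0 on GRCm38. The deposited values are expected counts per gene, all whole numbers in the file. Totals were 35961305 to 45849829 per library (median 39570356), no libraries were identical, and 0 columns belonged to no sample. Precision is set by 3 mice per group. The replicates are separate mice.

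Cytokine comparisons were fitted within a cell type on its 9 libraries, the cell types on the 6 PBS libraries and the difference in response on all 18. Tests used edgeR 4.0.16 (R 4.3.3; TMM, filterByExpr with a minimum count of 10, quasi-likelihood) over all genes that passed, with Benjamini-Hochberg adjustment over all of them and a threshold of 0.05, and were tested on simulated data. The standard error was derived from the F statistic. For the normalized counts, each library was divided by its DESeq2 1.42.0 size factor, estimated over all 18. TPM are counts per merged exonic base, scaled to the same total per library, with GENCODE exons. Intervals and errors cover the spread between mice.

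The members and lists were chosen with earlier results of these data known. Genes named were those called with a cytokine, the 10 of lowest p between the cell types, the most abundant per role and up to 5 other lysosomal genes of lowest p. The 2 genes higher in microglia, the 6 without a call between the cell types and the members described without a call with a cytokine were named after their values were seen, and the sums without Chil3 or Atp6v0d2 were added then. Microglia and macrophages with 1 number came from the same mouse by the labels, and their deviations from the group means had correlations of 0.0177 to 0.0935 over 16535 genes. Alternatives were DESeq2, its size factors in edgeR, no filter on low counts, fewer or all libraries, the mouse as a block and leaving out each mouse. Promoters were read from RefSeq sequences of GRCm38.p6.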

Additional observations from a re-analysis of the deposited data

Results flagged for a closer look

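For 2 genes the rIL-4 response differed between microglia and macrophages by a test of the difference itself, in edgeR with the mouse as a block. The test with the block called 122 higher and 66 lower of all 16535 genes. The difference (microglia minus macrophages, log2) was 2.46 for Ctsf, which fell in rIL-4 macrophages and did not pass in microglia. It was 2.68 for Atp6v0d2, which rose in both cell types. The sum of 10 microglia markers in macrophages was 2602 to 4035 CPM with PBS and 435 to 837 with rIL-4. The part of microglial RNA in the Ctsf values of the macrophage gate was not tested. Without the block, neither passed in edgeR on the filtered genes (adjusted p of 0.0593 and 0.175), while Ctsf passed with all genes of any count (adjusted p = 0.0311) and DESeq2 called both (adjusted p of 0.00157 and 0.0217).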

How the results depend on the processing

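No call between conditions reversed its direction in any alternative. Of the 46 genes, DESeq2 called 8 with rIL-4 and 4 with rIL-13 in microglia, 11 and 5 in macrophages, 2 between rIL-4 and rIL-13 in each cell type and 4 for the difference in rIL-4 response between the cell types. The corresponding numbers with edgeR as reported were 5, 1, 6, 2, 0, 0 and 0. DESeq2 also called more of all genes against PBS, 1215 and 322 in microglia and 2660 and 1163 in macrophages, where edgeR called 345, 57, 1900 and 570. With only the 6 libraries compared, 0 were called in rIL-13 microglia, where 27 of all 15013 genes were higher and 10 lower. With rIL-4, that gave 6 in microglia and 8 in macrophages, and a model of all 18 libraries 7 and 5. Over all genes, the fits of 6 libraries called 231 higher and 187 lower of 14654 in microglia. In macrophages they called 836 and 1091 of 13204. The model of all 18 libraries called 482 higher and 467 lower of 16535 in microglia, and 454 and 599 in macrophages. In that model, 1 member was called in rIL-13 macrophages, 1 between the cytokines in macrophages and 35 (in place of 40) between the cell types. Over all genes these were 164 higher and 93 lower, 4 and 66, and 2603 and 1637. Between rIL-4 and rIL-13 in macrophages, DESeq2 size factors in edgeR gave 1, where 4 of all 13606 genes were higher and 38 lower. Testing all genes with any count gave 2, where 58 of all 23333 were higher and 151 lower. That setting also gave 1 for the difference in rIL-4 response, where 110 of all 25957 were higher and 60 lower. The mouse as a replicate block, which pairs both cell types of a mouse, gave 2 for that difference and 41 between the cell types, and changed no other call. Over all genes, the block gave 122 higher and 66 lower of 16535 for that difference, and 3454 and 2458 of 14715 between the cell types. Leaving out each mouse in turn gave 1 to 4 calls for rIL-4 and 0 to 1 for rIL-13 in microglia, and 4 to 5 and 1 to 3 in macrophages. It gave 0 between the cytokines in microglia, 0 to 1 in macrophages (1 without rIL-13 mouse 6), 0 for the difference in rIL-4 response, and 32 to 37 between the cell types. Over all genes, it gave 56 to 151 higher and 19 to 118 lower with rIL-4 in microglia, and 485 to 799 and 526 to 815 in macrophages. With rIL-13 the numbers were 21 to 45 and 1 to 8 in microglia, and 117 to 303 and 82 to 226 in macrophages. Between the cell types they were 2762 to 3166 and 1592 to 2047. The median of the 46 moved beyond the spread between mice without rIL-13 mouse 6, to 0.17 for rIL-13 and -0.18 for rIL-4 against rIL-13 in microglia. Leaving out rIL-13 mouse 5 took the same medians the other way, to -0.18 and 0.17, and that of rIL-13 in macrophages to -0.24. The cause of these changes was not tested, except that fewer libraries leave fewer degrees of freedom. The precision is limited by 3 mice per group.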

Other observations

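The wider lysosomal list shared the direction of the 46 genes between the cell types. In PBS mice, 53 of 91 tested genes of the list were lower in microglia than in macrophages and 9 were higher by edgeR's quasi-likelihood test, where 16.3% of all genes were lower and 24.5% higher, with a median log2 fold change of -0.76. The 5 of lowest p were split. Serpina3n, a serine protease inhibitor, was higher in microglia by 5.81 ± 0.24 (SE, adjusted p = 2.20e-06), and Atp6v0e2, an alternative V0 subunit, by 4.64 ± 0.23 (adjusted p = 3.64e-06). Lower in microglia were Slc11a1, by 2.05 ± 0.11 (adjusted p = 4.87e-06), the acid lipase gene Lipa, by 1.84 ± 0.11 (adjusted p = 8.03e-06), and Acp5, by 3.69 ± 0.23 (adjusted p = 1.04e-05). The part of the fibroblast, pericyte and endothelial transcripts of the microglia libraries in these differences was not tested.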
